A study of Mus musculus with 18 samples.

Results

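Dppa2, Dppa3, Dppa4, Dppa5a and Utf1 are genes that mouse pluripotent cells express and most somatic cells do not. They were taken as the non-control probes that carry the names Dppa2, Dppa3, Dppa4, Dppa5 or Utf1 in the array files, which gave 6 probes for 5 of 24968 measured genes. The name Dppa5 in the files maps to Dppa5a by its accession. Each RNA was read on 2-colour mouse arrays (18 arrays, 36 channels), and the cell line was the replicate. Differentiating deficient iPSC were 3 clones of induced pluripotent stem cells labelled as Dnmt3ab deficient, named 8, A6 and B2, whose cultures had some signs of differentiation (12 channels). Deficient iPSC were the same 3 clones without that remark (6 channels). Control iPSC were 4 lines numbered 3 to 6 (12 channels). The reference RNAs were V6.5 ESC, a mouse embryonic stem cell line (1 RNA, 3 channels), and MEF, mouse embryonic fibroblasts (1 RNA, 3 channels). All iPSC had been grown on irradiated fibroblast feeders and kept on gelatin without fresh feeders for a short time before RNA was taken. The labels say neither how the deletion was made nor whether lines share a founder.

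Dppa2 and Dppa4 are adjacent genes whose proteins share a SAP domain, bind DNA as a pair, and are known in mouse ESC to keep bivalent promoters free of DNA methylation and to switch on genes of the cleavage-stage embryo. Dppa3, also called Stella or PGC7, is a maternal and germ cell protein that shields the genome from the loss or gain of methylation by binding methylation regulators, among them Uhrf1. Dppa5a, also called Esg1, is a small RNA-binding protein with a KH domain. Utf1 is a chromatin-bound protein of pluripotent cells that limits the reach of Polycomb repression in mouse ESC and is often used as a marker of complete reprogramming. Dnmt3a and Dnmt3b place methylation on unmethylated DNA, and the question asked of the arrays was how RNA levels in iPSC labelled deficient in them compare with those in control iPSC.

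The Dppa2 probe lies at chr16:48078749-48078808 on the plus strand and the Dppa4 probe at chr16:48053770-48053829 on the plus strand, on mouse build mm7 as the files give it. The Dppa3 probe lies at chr6:122666937-122666996 on the plus strand and the Utf1 probe at chr7:136358008-136358067 on the plus strand. Dppa5a has a bright probe at chr9:78441271-78441330 on the minus strand, used for the gene, and a second at chr5:28571256-28571315 on the plus strand, so the files place the second away from the gene. The pseudogenes Dppa5b and Dppa5c lie near Dppa5a on chromosome 9, and signal from near-identical copies cannot be told apart from that of Dppa5a. Of the 5 genes, only Utf1 has an entry in the table of RefSeq promoter windows used here. Its window is shown because Utf1 differed between deficient and control lines and CG dinucleotides, in capitals, are the sites at which Dnmt3a and Dnmt3b act.

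Utf1, GRCm38.p6, chr7:139943606-139943905, plus strand: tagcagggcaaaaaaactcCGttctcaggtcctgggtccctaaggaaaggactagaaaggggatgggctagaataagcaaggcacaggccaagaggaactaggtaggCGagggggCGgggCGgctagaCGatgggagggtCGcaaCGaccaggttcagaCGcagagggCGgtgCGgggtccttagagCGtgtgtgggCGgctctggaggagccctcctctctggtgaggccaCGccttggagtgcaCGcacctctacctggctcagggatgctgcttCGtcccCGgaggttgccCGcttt

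This window, from 250 bases before to 50 bases after the annotated start, held 17 CG dinucleotides, and 31.4% of the 32851 windows of 300 bases held as many. It held 4 matches to GGGCGG on either strand, counting overlaps, and 5.49% of windows held as many, while 35.7% held at least 1. No methylation was measured in the files used here.

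All 6 probes were well above background in 36 of 36 channels, those of MEF included, and none of their spots was saturated. The order of the kinds of RNA differed between the genes. MEF was lowest for all 5. By the fitted values V6.5 ESC was highest for Utf1 and Dppa5a, deficient iPSC for Dppa2, Dppa3 and Dppa4. V6.5 ESC was read only in the dye Cy5. In that dye, across arrays, deficient iPSC differed from it by -0.10 for the bright Dppa5a probe and -0.20 for Utf1. Deficient and control iPSC differed by less than their spread for Dppa3 (12.95 and 12.92 in the mean), and differentiating and control iPSC did so for Dppa2, Dppa4, Dppa5a and Utf1.

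**Figure D1:**
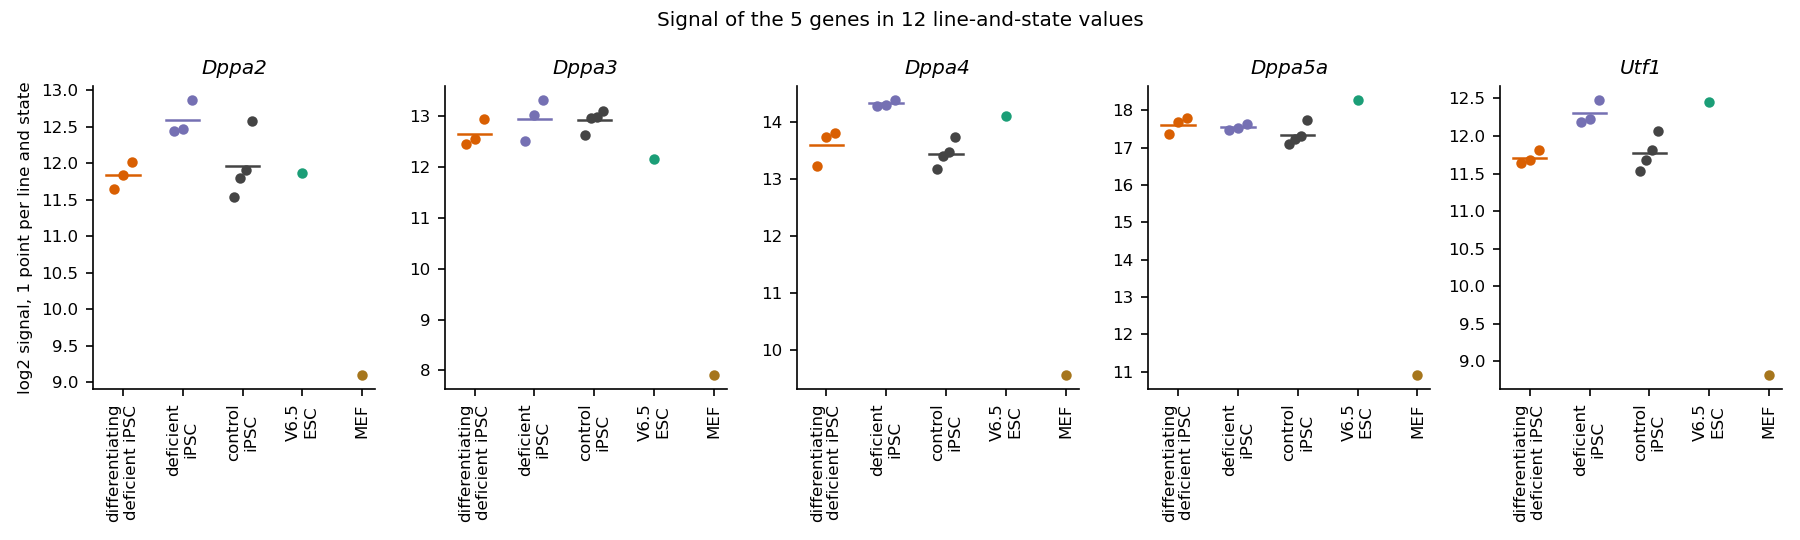
Log2 signal of each gene (vertical axis, a scale of its own in each panel) in the 5 kinds of RNA, 1 point per line and state, with the mean of each iPSC kind as a bar. MEF is the lowest point in every panel, and the 3 deficient iPSC points of Dppa4 and Utf1 lie above all 4 control points.

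The arrays fell into 2 scan days. The first held 6 arrays, on which deficient iPSC were set against V6.5 ESC or MEF, and the second 12 arrays, which held the differentiating clones and the control lines. Scan day and kind therefore cannot be told apart when deficient iPSC are set against control lines or against differentiating cultures, whereas differentiating and control iPSC shared arrays. Without scaling between arrays, the median gene differed by 0.44 log2 units between deficient and control iPSC, against -0.06 with it. Dnmt3a was lower in deficient than in control iPSC by -1.48 ± 0.272 (log2 difference ± SE, adjusted p = 0.00504 by limma), and Dnmt3b differed by -0.32 ± 0.449 (adjusted p = 0.596), so the Dnmt3b signal does not bear out the label. Whether either probe lies in a deleted part of its gene is not given in the sources used here. The pluripotency markers Pou5f1, Sox2, Nanog and the like averaged 12.87 to 13.08 log2 units in differentiating cultures, 13.49 to 13.66 in deficient iPSC and 13.00 to 13.25 in control lines, against 8.52 in MEF. On the array of differentiating clone 8 and control line 5 the Dppa4 spot was low and the Dppa3 spot high in both channels, so results that rest on it are also given without that array.

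Dppa4 and Utf1 were higher in deficient iPSC than in control iPSC, by 0.88 ± 0.124 and 0.53 ± 0.136 log2 units, which is 1.84-fold and 1.44-fold. Dppa2 lay 0.64 ± 0.249 higher without passing the test, and Dppa3 and Dppa5a differed by 0.03 ± 0.200 and 0.21 ± 0.151. So 2 of the 5 genes were called higher and none lower, where 15.3% of all genes were called higher and 46.2% in either direction. Values between lines of separate scan days share an error that this test does not see, and it called too many genes on simulated data. The adjusted p with each line taken as the mean of its own channels, which called 29.3% of all genes and 10.1% higher, is therefore given second for each comparison across the days. A difference between the scan days themselves would remain in this second p as well.

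Dppa4 was at 14.30 (clone 8), 14.39 (A6) and 14.28 (B2) log2 units in deficient iPSC, against 13.47, 13.40, 13.17 and 13.73 in control lines 3 to 6. The deficient clones lay close together in this fit and above every control line. As plain channel means they lay wider apart, at 14.19 (clone 8), 14.47 (A6) and 14.31 (B2). The adjusted p was 0.00173 by limma (3 against 4 lines) and 0.0190 from channel means, and the 95% interval of the difference ran from 0.59 to 1.18. Without the array of clone 8 and control 5, where the Dppa4 signal of line 5 was 12.03, the difference was 0.77 ± 0.109 (adjusted p = 0.00184 by limma).

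Utf1 was at 12.23, 12.48 and 12.19 log2 units in deficient clones 8, A6 and B2, against 12.07, 11.81, 11.68 and 11.54 in control lines 3 to 6. Every deficient clone lay above every control line, with a gap of 0.12 between clone B2 and line 3. The adjusted p was 0.0193 by limma and 0.0324 from channel means, and the call was lost without clone A6 (0.44 ± 0.148, adjusted p = 0.0695 by limma). Lines that do not overlap, higher in deficient iPSC, were found for 17.2% of all genes. An exact permutation test over lines gave a two-sided p of 0.0571 for both Dppa4 and Utf1, the smallest that 3 against 4 lines allow.

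Dppa2, the neighbour and partner of Dppa4, was at 12.45, 12.87 and 12.47 in deficient clones 8, A6 and B2, against 11.91, 11.80, 11.54 and 12.58 in control lines 3 to 6. Control line 6 lay above 2 of the 3 deficient clones, and the other 3 control lines lay below all of them. The adjusted p was 0.0753 by limma and 0.0660 from channel means. It was 0.00379 without control line 6, with a difference of 0.85 ± 0.143 by limma. Over all omissions of 1 line it ran from 0.00379 to 0.219 by limma.

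Dppa3 was at 12.51, 13.02 and 13.32 in deficient clones 8, A6 and B2, against 12.63, 13.11, 12.97 and 12.97 in control lines 3 to 6. The groups overlapped, with the deficient clones both at the bottom and at the top of the range (adjusted p = 0.914 by limma and 0.919 from channel means). The 95% interval of the difference ran from -0.45 to 0.51. One Dppa3 spot, on the array of control line 6 and clone A6, was left out as an outlier by the scanner's own mark.

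Dppa5a, by its bright probe, was at 17.65, 17.54 and 17.48 in deficient clones 8, A6 and B2, against 17.31, 17.23, 17.11 and 17.75 in control lines 3 to 6. As for Dppa2, only control line 6 reached the deficient clones (adjusted p = 0.302 by limma and 0.158 from channel means). Without line 6 the difference was 0.34 ± 0.070 (adjusted p = 0.00776 by limma). Over all omissions of 1 line the adjusted p ran from 0.00776 to 0.532 by limma. The second probe differed by 0.45 ± 0.15, with an adjusted p of 0.0454 by limma over all probes, of which 45.6% were called, so the 2 probes fell on either side of the threshold.

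**Figure D2:**
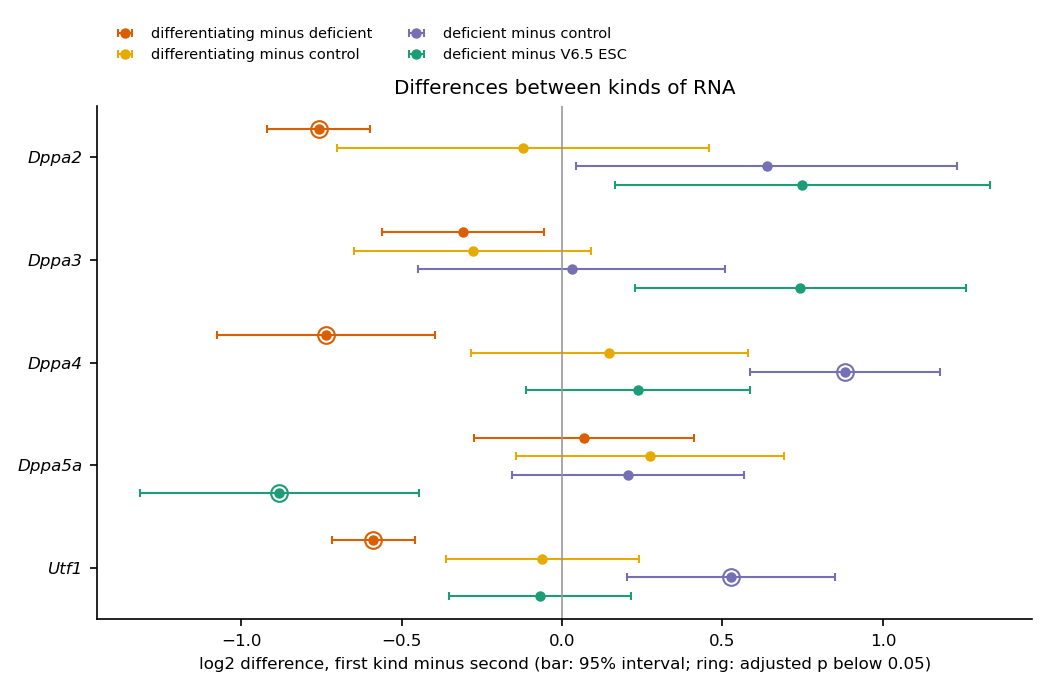
Log2 differences of the 5 genes (horizontal axis) in 4 comparisons, first kind minus second, with 95% intervals from limma, and rings where the adjusted p was below 0.05. The rings for differentiating minus deficient sit at -0.76 for Dppa2, -0.74 for Dppa4 and -0.59 for Utf1, and no gene has a ring for differentiating minus control.

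The same 3 clones were read in both states. Dppa2, Dppa4 and Utf1 were lower in differentiating than in deficient iPSC in 3 of 3 clones, by 1.69-fold, 1.67-fold and 1.5-fold, while Dppa5a was not. So 3 of the 5 genes were called lower, where 19.3% of all genes were called lower and 52.3% in either direction, and where all 3 clones lay lower for 28.6% of all genes. Channel means called 31.5% of all genes and 12.8% lower.

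Dppa2 was at 11.65, 12.02 and 11.84 log2 units in differentiating clones 8, A6 and B2, against 12.45, 12.87 and 12.47 in the same clones without signs of differentiation. The clone-by-clone differences of -0.80, -0.85 and -0.63 averaged -0.76 ± 0.0584 (adjusted p = 0.00414 by limma, paired over clones, and 0.00934 from channel means). Utf1 was at 11.64, 11.82 and 11.68 in differentiating clones, against 12.23, 12.48 and 12.19, an average difference of -0.59 ± 0.0478 (adjusted p = 0.00414 by limma and 0.0105 from channel means). For both genes the 2 states did not overlap, as for 21.8% of all genes lower in this direction, and the spread between clones was small beside the difference.

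Dppa4 was at 13.23, 13.80 and 13.74 in differentiating clones 8, A6 and B2, against 14.30, 14.39 and 14.28. Its differences were -1.08, -0.59 and -0.54, averaging -0.74 ± 0.124 (adjusted p = 0.0129 by limma and 0.0233 from channel means). Clone 8 had the largest fall, and its 4 channels ran from 12.09 to 13.56. Without the array of clone 8 and control 5 the average was -0.63 ± 0.105 (adjusted p = 0.0122 by limma).

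Dppa3 was at 12.44, 12.54 and 12.94 in differentiating clones 8, A6 and B2, against 12.51, 13.02 and 13.32. It lay lower in 3 of 3 clones, by -0.07, -0.48 and -0.38, without passing the test (-0.31 ± 0.0918, adjusted p = 0.0507 by limma and 0.153 from channel means). Clone 8 carried the array on which the Dppa3 spot stood apart, with 13.16 there and 12.14 to 12.34 on its other 3 arrays. Without that array the difference was -0.39 ± 0.070 (adjusted p = 0.0143 by limma and 0.0330 from channel means). Dppa5a was at 17.37, 17.80 and 17.69 in differentiating clones, against 17.65, 17.54 and 17.48, higher in 2 clones and lower in clone 8 (0.07 ± 0.125, adjusted p = 0.668 by limma). Without clone 8, Dppa3 was at -0.43 and Dppa5a at 0.24 (adjusted p = 0.00523 and 0.0153 by limma). Over all omissions of 1 clone these adjusted p ran up to 0.207 for Dppa3 and 0.984 for Dppa5a by limma. Every call in this comparison of Dppa2, Dppa4 and Utf1 was lost without clone A6, where limma called 0 genes in all (10311 at an unadjusted p below 0.05), with adjusted p from 0.0518 to 0.0657 for these genes by limma.

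**Figure D3:**
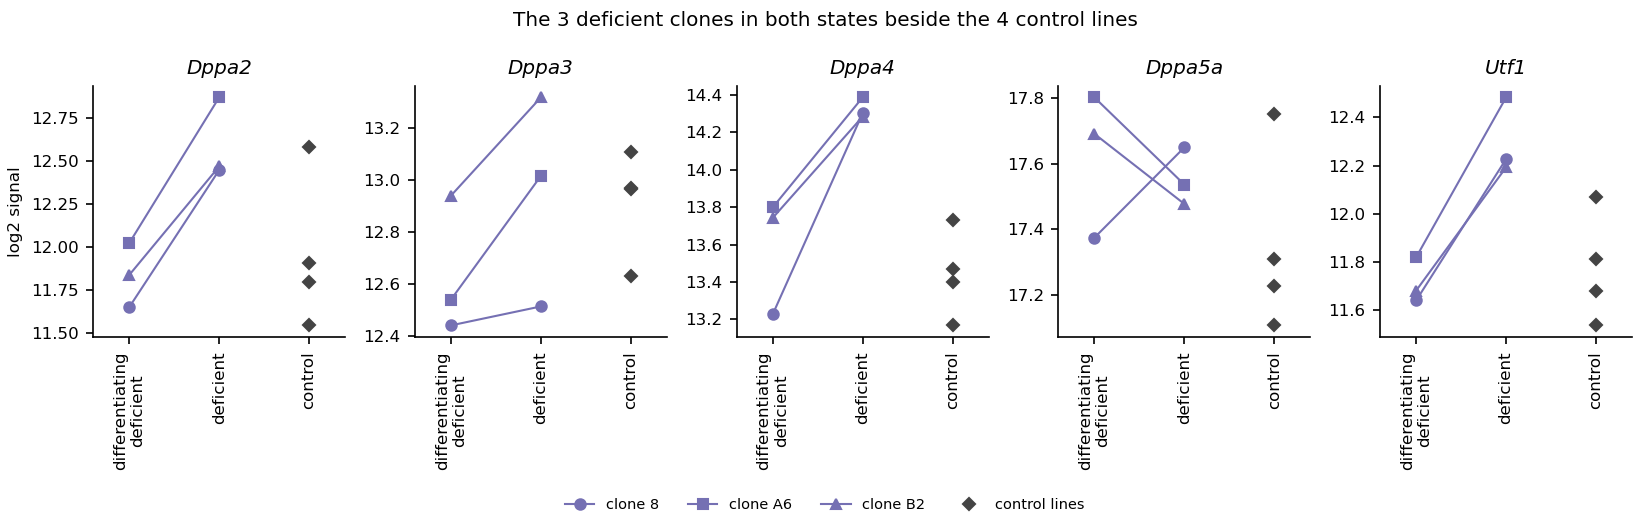
Log2 signal of each gene in the 3 deficient clones in both states, joined by a line per clone, and in the 4 control lines. All 3 lines of Dppa2, Dppa4 and Utf1 run lower in the differentiating state, by 0.51 to 1.08 log2 units, while those of Dppa5a cross.

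Differentiating deficient iPSC and control iPSC were read on the same arrays, and here none of the 5 genes was called, where 4.92% of all genes were, and 2.47% from channel means. The 1228 genes behind the 4.92% became 0 to 3471 when 1 line was left out. The differences were -0.12 ± 0.242 for Dppa2, -0.28 ± 0.154 for Dppa3, 0.15 ± 0.18 for Dppa4, 0.27 ± 0.175 for Dppa5a and -0.06 ± 0.126 for Utf1, with adjusted p from 0.390 to 0.892 by limma. The 95% interval for Utf1, the narrowest, ran from -0.36 to 0.24, and that for Dppa2, the widest, from -0.70 to 0.46. At this number of lines a difference the size of that seen for Dppa4 in deficient iPSC lay outside the interval of Dppa4, which ended at 0.58. From channel means none was called either, with adjusted p of 0.305 or more. The lowest unadjusted p was 0.116 by limma, for Dppa3, and 0.0453 from channel means, for Dppa5a. Of the 3 differentiating clones, by the fitted values, 2 lay below every control line for Dppa3, 2 lay above every one for Dppa4 and 1 did for Dppa5a. For Dppa4 clone B2 cleared line 6 only narrowly, at 13.74 against 13.73. From channel means A6 (13.87) and B2 (13.86) lay below line 6 (13.89) for Dppa4. For Dppa5a A6 (17.73) and B2 (17.66) both lay above line 6 (17.61) from channel means. Slide by slide, Dppa4 differed from the 4 control lines by -0.15 beside clone 8, 0.34 beside A6 and 0.27 beside B2.

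The endoderm markers Gata4, Gata6, Sox17, Foxa2 and others averaged 11.29 (clone 8), 10.63 (A6) and 10.32 (B2) log2 units in the differentiating cultures and 10.17, 8.80 and 8.78 in the same clones of deficient iPSC, against 8.77 to 9.63 in control lines. Deficient clone 8 thus stood apart from A6 and B2, above every control line and next to differentiating B2. Without deficient clone 8, Dppa4 was higher than in control lines by 0.89 ± 0.152 and Utf1 by 0.56 ± 0.165 (adjusted p = 0.00725 and 0.0395 by limma). Without clone 8 in both states, differentiating minus deficient was -0.74 for Dppa2, -0.57 for Dppa4 and -0.59 for Utf1 (adjusted p = 0.00369, 0.00321 and 0.00394 by limma). Of 13 measured, 5 were called higher in differentiating than in control iPSC by limma and none lower, and 3 of the 5 stayed called from channel means, where 2.33% and 1.13% of all genes were called higher. These calls, and those of the fibroblast and primed lists in this comparison, were lost when 1 line was left out: limma called 0 genes in all without clone A6, clone B2 or line 3 (3753 to 4212 at an unadjusted p below 0.05) and 27 without line 4. The list was led by Cubn at 3.80 ± 0.579 and Foxa2 at 2.66 ± 0.446 (adjusted p = 0.0293 and 0.0328 by limma). The median of the list was 1.52, against 0.00 for all genes. A gain of such cells and a change of RNA per cell cannot be told apart in bulk RNA. The endoderm list had no gene called by both tests in deficient against control iPSC, where Afp was at 0.46 ± 0.138 and Gata4 at -0.25 ± 0.0603 (adjusted p = 0.0319 and 0.0153 by limma, 0.0860 and 0.0924 from channel means). The fibroblast markers averaged 10.65 to 11.18 in differentiating cultures and 10.65 to 10.72 in deficient iPSC, against 11.19 to 11.98 in control lines and 14.94 in MEF. All 18 were above background in channels of each kind. Of these 18, 11 were lower in deficient than in control iPSC by both tests, where 30.9% of all genes were called lower by limma and 19.2% from channel means. Among the 11 were S100a4 at -2.28 ± 0.229 and Col1a1 at -1.96 ± 0.272 (adjusted p = 0.000526 and 0.00166 by limma, 0.00164 and 0.00340 from channel means). Fn1, which encodes fibronectin, was the 1 marker higher by both, at 0.54 ± 0.108 (adjusted p = 0.00706 by limma). The part of fibroblast RNA in the higher Dppa4 and Utf1 signal of deficient iPSC was not tested. In differentiating against control iPSC 5 fibroblast markers were lower by both tests, where 2.59% of all genes were called lower by limma and 1.34% from channel means. They were led by Col3a1 at -1.61 ± 0.288 and Twist2 at -1.19 ± 0.160 (adjusted p = 0.0367 and 0.0263 by limma). Of 12 markers of primed pluripotency, 3 were called lower there by limma and 2 from channel means, led by Fgf8 at -2.09 ± 0.424 and Wnt3 at -1.23 ± 0.149 (adjusted p = 0.0475 and 0.0245 by limma, 0.0589 and 0.0124 from channel means). In deficient iPSC 4 fell by both tests, where 30.9% of all genes were called lower by limma and 19.2% from channel means. Higher calls made up 15.3% and 10.1% of all genes. Nodal and Eomes were called higher by limma only (0.42 ± 0.142 and 0.22 ± 0.0723, adjusted p = 0.0492 and 0.0437) and Foxd3 from channel means only (0.64, adjusted p = 0.0412). Those that fell included Fgf8 at -2.35 ± 0.443 and Wnt3 at -1.13 ± 0.161 (adjusted p = 0.00560 and 0.00183 by limma, 0.00968 and 0.00210 from channel means).

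Against the single MEF RNA on the same arrays, all 5 genes were far higher in deficient iPSC, and all 5 passed the test, where 28.2% of all genes were called higher and 58.2% in either direction. Dppa5a was higher by 6.79 ± 0.205 log2 units, 111-fold and rank 2 of 24968 genes from the top. Dppa3 was higher by 5.09 ± 0.242 (34.1-fold), Dppa4 by 4.74 ± 0.164 (26.7-fold), Dppa2 by 3.48 ± 0.275 (11.1-fold) and Utf1 by 3.40 ± 0.133 (10.6-fold). The largest adjusted p was 9.31e-09, for Dppa2, by limma. MEF was 1 RNA read only in Cy3, so its own spread was not measured. In the same dye, across arrays, the differences were 6.01 for Dppa5a, 5.12 for Dppa3, 4.83 for Dppa4, 3.62 for Dppa2 and 3.53 for Utf1.

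Against V6.5 ESC, on shared arrays, Dppa5a alone of the 5 genes was called (-0.88 ± 0.205, adjusted p = 0.0181 by limma), where 1.86% of all genes were called lower and 5.38% in either direction. V6.5 ESC was 1 RNA read 3 times, so its own spread was not measured, and the SE and p come from the spread between arrays, which include repeat readings of the same lines. The same holds for MEF. The call was lost without the array of B2 or that of A6 (adjusted p = 0.128 and 0.0850 by limma). The signal of this probe in the clones also differed between the arrays with V6.5 ESC and those with MEF. Dye and partner RNA changed together there and cannot be told apart. On these arrays deficient iPSC were in Cy3, at 17.00 (clone 8), 17.01 (A6) and 16.89 (B2), against 18.11, 18.27 and 18.34 for V6.5 ESC in Cy5. On the arrays with MEF the same clones were in Cy5, at 18.15, 18.08 and 18.19. The Dppa5a signal of a clone was thus 1.07 to 1.29 log2 units higher in Cy5 beside MEF than in Cy3 beside V6.5 ESC. The dye term fitted over all 18 arrays was 0.45 for this probe. In the same dye, Cy5, deficient iPSC differed from V6.5 ESC by -0.10, across arrays and with no test. The second Dppa5a probe was called too (-0.72 ± 0.185, adjusted p = 0.0350 by limma over all probes, of which 4.27% were called) and differed by -0.23 in the same dye.

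**Figure D4:**
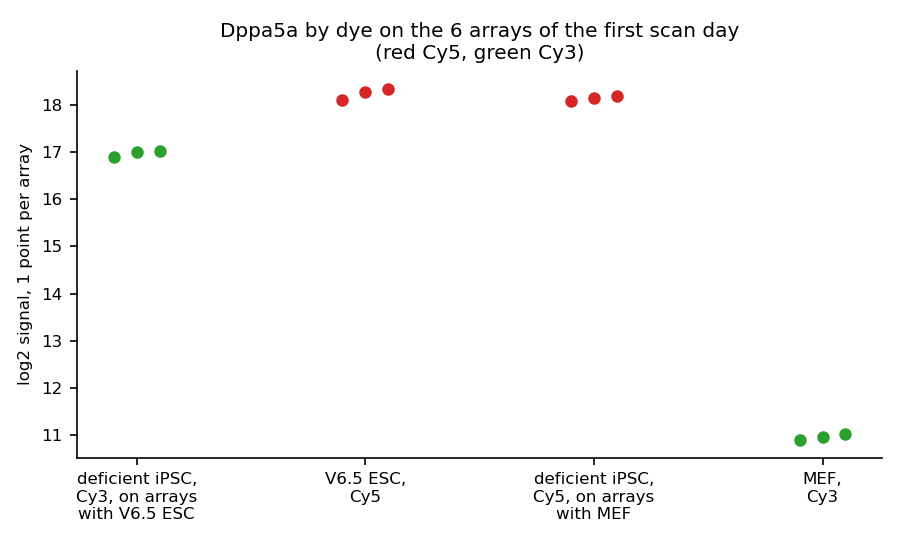
Log2 signal of the bright Dppa5a probe on the 6 arrays of the first scan day, 1 point per array, Cy5 in red and Cy3 in green. The same 3 deficient clones sit at 16.89 to 17.01 in Cy3, on arrays with V6.5 ESC. In Cy5, on arrays with MEF, they sit at 18.08 to 18.19, next to V6.5 ESC in Cy5 at 18.11 to 18.34.

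The other 4 genes did not pass against V6.5 ESC. Dppa2 differed by 0.75 ± 0.275 (adjusted p = 0.140), Dppa3 by 0.74 ± 0.242 (adjusted p = 0.0944), Dppa4 by 0.24 ± 0.164 (adjusted p = 0.508) and Utf1 by -0.07 ± 0.133 (adjusted p = 0.861), all by limma. Dppa3 was the gene on which clones diverged, with -0.07 for clone 8, 0.78 for A6 and 1.1 for B2 against V6.5 ESC on the same array, before dye correction. Without the array of clone 8 the Dppa3 difference was 1.08 ± 0.237 (adjusted p = 0.0141 by limma). Over all omissions of 1 array the adjusted p of Dppa3 ran from 0.0141 to 0.448 by limma. Dppa4 stood 0.06, 0.27 and 0.10 above V6.5 ESC in clones 8, A6 and B2, on the same array and before dye correction. The control lines, over which its margin was larger, were read on the other day.

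Genes known to need Dppa2 and Dppa4 in mouse ESC, many of them of the 2-cell embryo or the germ line, were mostly higher in deficient iPSC. Of 20 listed, 11 were measured, 8 of these were called higher than in control iPSC by limma and none lower, and 6 of the 8 stayed called from channel means, where 15.3% and 10.1% of all genes were called higher. The median of the list was 1.18, against -0.06 for all genes. Zscan4c, a marker of the 2-cell-like state, rose by 3.11 ± 0.733 (adjusted p = 0.0135 by limma and 0.0187 from channel means). Hormad1, a protein of meiotic chromosome axes, rose by 2.80 ± 0.544 (adjusted p = 0.00626 and 0.00871). Zscan4c belongs to a family of near-identical copies, as do the Tcstv and Usp17l genes, so which copy their probes read is uncertain. Their calls may therefore not be separate, and the count of called genes on this list is to be read with that limit. In differentiating against control iPSC none of the 11 was called by limma or from channel means, 1 had an unadjusted p below 0.05 by limma, and the median was 0.53. There Zscan4c was at 1.14 ± 0.655 (adjusted p = 0.409 by limma) and Hormad1 at 1.81 ± 0.619 (adjusted p = 0.155 by limma). Against the 1 RNA of V6.5 ESC, whose own spread was not measured, 1 of the 11 was called, where 5.38% of all genes were. It was Syce1, a protein of meiotic chromosomes, at 1.52 ± 0.207 (adjusted p = 0.000506 by limma), and the median was 0.83. Zscan4c and Hormad1 were at 1.01 ± 0.753 and 0.94 ± 0.695 there (adjusted p = 0.549 and 0.541 by limma). Whether Dppa2 and Dppa4 had a part in these values was not tested.

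**Figure D5:**
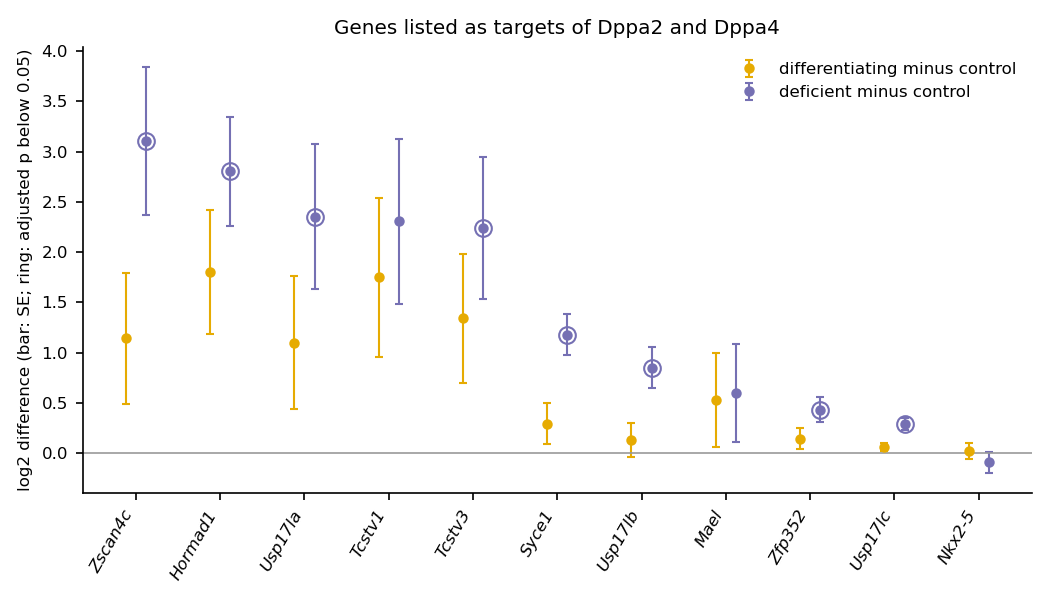
Log2 differences (vertical axis, ± SE) of the 11 measured genes listed as needing Dppa2 and Dppa4, for differentiating minus control and deficient minus control, with rings where the limma adjusted p was below 0.05. The rings all belong to deficient minus control, where Zscan4c is at 3.11, and no differentiating value has one.

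Of 27 measured genes of the pluripotency network other than the 5, 10 were called higher in deficient than in control iPSC by limma and none lower, and 9 of the 10 stayed called from channel means, where 15.3% and 10.1% of all genes were called higher. The list median was 0.43. Nanog, a core transcription factor, rose by 1.05 ± 0.203 (adjusted p = 0.00622 by limma and 0.00538 from channel means), and Tdgf1, the Nodal co-receptor, by 0.73 ± 0.183 (adjusted p = 0.0168 and 0.0216). In differentiating against control iPSC only Ash2l, a subunit of histone H3K4 methyltransferases, was called (0.43 ± 0.0866, adjusted p = 0.0472 by limma), 1 of 27 where 4.92% of all genes were called, and the median was -0.19. Ash2l was not called there from channel means, which called 0 of the 27.

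The list around Dppa3, of germ cell genes and regulators of methylation, had 16 measured genes. In deficient against control iPSC 9 were called higher and 2 lower by limma, and 7 and 2 from channel means, with a list median of 0.43. Of all genes 15.3% were called higher and 30.9% lower by limma, and 10.1% and 19.2% from channel means. Dazl, an RNA-binding protein of germ cells, rose by 3.31 ± 0.518 (adjusted p = 0.00267 by limma and 0.00518 from channel means). Uhrf1, which recruits the maintenance methyltransferase and which Dppa3 binds, rose by 0.94 ± 0.0864 (adjusted p = 0.000393 and 0.00294), while Dppa3 itself differed by 0.03. In differentiating against control iPSC only Kit, the receptor of stem cell factor, was called (0.39 ± 0.0708, adjusted p = 0.0385 by limma), 1 of 16 where 4.92% of all genes were called, and none was from channel means.

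The list around Utf1, of Polycomb repressive complex 2 subunits, decapping proteins, Myc and others, had 10 measured genes and a median of 0.13 in deficient against control iPSC, where 1 was called higher and 1 lower by limma, against 15.3% and 30.9% of all genes. Atf2, a transcription factor that binds Utf1, rose by 0.25 ± 0.0596 (adjusted p = 0.0140 by limma and 0.0189 from channel means). Eed, a core subunit of that complex, was at -0.24 ± 0.0614 (adjusted p = 0.0179 by limma and 0.0526 from channel means). In differentiating against control iPSC 2 of the 10 were called lower by limma, Myc at -0.82 ± 0.161 and Eed at -0.43 ± 0.0472 (adjusted p = 0.0442 and 0.0239), and Eed stayed called from channel means (adjusted p = 0.0289), where 2.59% and 1.34% of all genes were called lower. Among 7 measured genes related to Dppa5a, of KH-domain proteins and their oocyte complex, limma called 2 higher and 2 lower in deficient iPSC. This was near the share of all genes that limma called, 46.2%. Channel means called the same genes of the list, and 29.3% of all genes. Khdc3, a KH-domain protein of the oocyte, rose by 2.54 ± 0.280 (adjusted p = 0.000720 by limma and 0.00287 from channel means), and Padi6, an oocyte protein of the same complex, fell by 0.72 ± 0.212 (adjusted p = 0.0310 and 0.0322). None of the 7 was called in differentiating against control iPSC by limma or from channel means, and 1 had an unadjusted limma p below 0.05.

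Neighbours of the 5 genes on the chromosome were also read, by their order in the RefSeq table. Morc1, the next gene beyond Dppa2 and a germ-line ATPase that represses transposons, was higher in deficient than in control iPSC by 0.81 ± 0.111 (adjusted p = 0.00159 by limma and 0.00566 from channel means). Trat1 and Nectin3, farther out on either side, differed by -0.06 ± 0.0394 and 0.19 ± 0.145 (adjusted p = 0.266 and 0.323 by limma). Dppa3 lies between Gdf3, a growth factor of the TGF-beta family (0.68 ± 0.185, adjusted p = 0.0226 by limma and 0.0462 from channel means), and Nanog. Both of these neighbours were called higher in deficient iPSC while Dppa3 was not, where limma called 15.3% of all genes higher and channel means 10.1%. The same pair were lower in differentiating than in deficient iPSC, by -0.84 ± 0.0812 for Gdf3 and -1.59 ± 0.144 for Nanog (adjusted p = 0.00479 and 0.00447 by limma, 0.00934 and 0.00801 from channel means). In that comparison limma called 19.3% of all genes lower and 52.3% in either direction, and channel means 12.8% and 31.5%. The outer neighbours of Dppa3, Apobec1 and Slc2a3, differed by -0.12 ± 0.264 and -0.39 ± 0.18 in deficient against control iPSC (adjusted p = 0.731 and 0.116 by limma). In differentiating against deficient iPSC Apobec1 was called higher, at 0.85 ± 0.104 (adjusted p = 0.00678 by limma and 0.00801 from channel means), and Slc2a3 was not called. Nectin3 was called lower there, at -0.49 ± 0.0759 (adjusted p = 0.0108 by limma and 0.0161 from channel means). Gsta2, a neighbour of Dppa5a, was called lower there by limma only, and Morc1 from channel means only. Kndc1, before Utf1, was higher by 1.00 ± 0.310 in deficient and by 1.28 ± 0.209 in differentiating iPSC than in control lines (adjusted p = 0.0369 and 0.0321 by limma, 0.0626 and 0.0528 from channel means). The other neighbours of Utf1, Adgra1, Spef1l and Adam8, differed by 0.12, 0.18 and -0.40 in deficient iPSC, and those of Dppa5a, Omt2b, Gsta2 and Ooep, by -0.04, 0.04 and 0.25, none of them called.

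The genes whose levels followed each gene most closely over the 10 iPSC values are given as a description, with no test, since the 10 values share 3 clones and 2 scan days and 17680 genes were ranked. For Dppa4 these were Pecam1 (Pearson r = 0.986), Cfap20dc (0.985) and Fhad1 (0.984). For Dppa2 they were Gbx2 (0.985), Robo4 (0.985) and Calcoco2 (0.982), and for Utf1 Ascc1 (0.981), E2f1 (0.979) and Stk11ip (0.975). For Dppa3 they were Zfp770 (0.954), Cxcl5 (0.921) and Slc9a8 (0.920), and for Dppa5a Cox7a1 (0.952), Gdpd3 (0.944) and Sgo1 (0.936). Over the 7 values of the second scan day alone the same 15 coefficients were 0.860 to 0.980, with ranks from 3 (Ascc1) to 89 (Sgo1). These 7 are among the 10 values by which the genes were chosen, so they are no separate check. With V6.5 ESC and MEF added, Gbx2 still ranked 2 for Dppa2 (r = 0.990), whereas Cxcl5 turned to r = -0.95 for Dppa3. Cox7a1 and Sgo1 then ranked 48 and 286 for Dppa5a. All the others fell to ranks from 833 (Calcoco2) to 17375 (Cxcl5) of 17680.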

How the data were processed

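The members, the gene lists and the choice of genes to name were made with earlier results of these data known. Per the file headers, Agilent Feature Extraction 10.1.1.1 gave each spot's mean intensity, local background and processed intensity in both dyes. The deposited value table holds a log2 ratio per probe and array, with direction and scale unstated. Set against the ratios computed here, it ran as deficient over partner on all 18 arrays (slope 1.00 to 1.35, column medians -0.02 to 0.02), and it served as an alternative. The correlation of the deposited with the computed ratios was uneven, from 0.665 to 0.999 over arrays. It was lowest on the V6.5 ESC arrays of clones A6 (0.665) and B2 (0.812) and the array of line 3 and clone A6 (0.850). The submitters' processing notes name limma.

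Background was removed by normexp with an offset of 50, followed by loess within each array and Aquantile across arrays, in limma 3.58.1 (R 4.3.3), with outlier spots left out. Aquantile hides a change shared by most genes. A probe was kept if it was well above background in a share of 0.5 or more of the channels of any kind of RNA (36964 of 41174 probes), and a gene was its brightest probe. Of the 24968 genes, 14928 were named by accession, 2547 by symbol and 1274 by synonym, and 6219 kept the name in the files. A separate-channel fit (12 line-and-state terms, dye, intra-spot correlation 0.767) gave 1 log2 value per line and state. Lines were compared by limma, with the 2 states paired by clone name, and V6.5 ESC and MEF were compared by limma on log ratios, with dye as a term and all 18 arrays in the fit. Benjamini-Hochberg adjustment ran over all genes, with two-sided tests and a threshold of 0.05. Between scan days this fit called too many genes on simulated data, so a second test with plain channel means per line was added. Neither test takes out a difference between the scan days. Errors are SE unless marked SD. Nothing says that lines came from separate animals, so p-values measure the spread between these lines, and their number limits the precision. Per channel, 69.7% to 92.6% of probes stood well above background.

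Named genes were all members, up to 2 called genes of each list with the largest difference from control lines, the 3 most correlated genes and the 2 nearest protein-coding neighbours on each side. Syce1, Fn1, Nodal, Eomes and Foxd3 were named after their values were seen. The neighbours Gm52257 and Ddx43 had no measured probe. On the second scan day slide, replicate number and clone coincide. Exact permutation tests used scipy 1.17.1, and the promoter window and gene order came from RefSeq tables on GRCm38.p6.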

Additional observations from a re-analysis of the deposited data

Results flagged for a closer look

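Dppa2, Dppa4 and Utf1 were picked out because their difference from the control lines was not the same in the 2 states of the 3 clones. The test was that of differentiating minus deficient iPSC, paired over clones, in limma. Dppa2 lay -0.12 from the control lines in the differentiating state and 0.64 in the other, and the states differed by -0.76 (adjusted p = 0.00414). For Dppa4 the values were 0.15 and 0.88 and the states differed by -0.74 (adjusted p = 0.0129). For Utf1 they were -0.06 and 0.53, and the states differed by -0.59 (adjusted p = 0.00414). The direction held in 3 of 3 clones for each gene. The 2 states were read on different scan days, which cannot be told apart from the states, and 52.3% of all genes were called in this comparison. No control line was marked as an outlier for any of the 6 probes.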

How the results depend on the processing

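Over all settings, 250 differences of the 5 genes kept their direction and side of the threshold, 10 passed it anew, 7 no longer did and 13 changed direction. Dppa4 stayed called higher in deficient than in control iPSC under every setting run, with 0.79 to 0.98 when 1 line was left out. Scanner-processed signals gave Dppa3 at -0.12 in deficient minus control iPSC, Dppa5a at 0.43 there (adjusted p = 0.0459 by limma), Dppa5a at -0.16 in differentiating minus deficient and at -0.46 in deficient minus V6.5 ESC (adjusted p = 0.141 by limma), where 3498 genes were called instead of 1343. Without scaling between arrays 19388 genes were called in deficient minus control instead of 11530, with 96.6% of them higher instead of 33.1%, and 20396 in differentiating minus deficient instead of 13058, with 4.99% higher instead of 63%. Dppa2 was then 1.00 in the first (adjusted p = 0.0101 by limma) and Dppa3 -0.64 and Dppa5a -0.0077 in the second. With the mean of all probes, Dppa3 was -0.31 in the second (adjusted p = 0.0476 by limma) and Dppa5a -0.0944. Scanner-processed signals moved the share of calls that were higher against V6.5 ESC to 44.9% from 65.4%. Without a dye term Utf1 was 0.0942 against V6.5 ESC. Plain channel means called 7317, 617 and 7869 genes in deficient minus control, differentiating minus control and differentiating minus deficient. Without the array of clone 8 and control 5, 2170 genes were called in differentiating minus control instead of 1228, and Dppa3 was -0.39 in differentiating minus deficient. The replicate block, with 1 difference per slide and its clone, called 4824 genes in differentiating minus control and none of the 5, with Dppa3 at -0.30 ± 0.119 (adjusted p = 0.184 by limma). Each slide held the same control lines, so the error of this block leaves out the spread between control lines. The cause of these changes was not tested.

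Leaving out 1 line in deficient minus control gave Dppa2 0.50 to 0.85, Dppa3 -0.15 to 0.25, Dppa5a 0.13 to 0.34 and Utf1 0.44 to 0.62. In differentiating minus control it gave 0 to 3471 called genes (0 without clone A6, clone B2 or line 3, with 3753 to 4212 at an unadjusted p below 0.05; 27 without line 4; 3471 without line 6), Dppa2 -0.26 to 0.087 and Utf1 -0.14 to 0.0368. In differentiating minus deficient, leaving out 1 clone gave 0 to 14512 called genes (0 without A6, 6826 without B2), Dppa2 -0.82 to -0.71, Dppa3 -0.43 to -0.23, Dppa4 -0.83 to -0.57, Dppa5a -0.0308 to 0.24 and Utf1 -0.63 to -0.55. Against V6.5 ESC, leaving out 1 array gave 481 to 1458 called genes (481 without the array of B2, 523 without that of A6), Dppa3 0.50 to 1.08, Dppa5a -0.96 to -0.79 (adjusted p 0.0299 to 0.128 by limma) and Utf1 -0.20 to 0.0071. The channel-mean test and the setting without 1 array were chosen after seeing the data.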
